A study of Mus musculus with 4 samples.

Results

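The genes described here are 30 genes of cholesterol and fatty acid synthesis that are known targets or controllers of the SREBP transcription factors, out of 32285 genes in the tables. They are named for their place in the pathway and comprise 7 enzymes of the mevalonate steps (Acat2, Hmgcs1, Mvk, Pmvk, Mvd, Idi1 and Fdps), 3 enzymes that make squalene and lanosterol (Fdft1, Sqle and Lss), 8 enzymes from lanosterol to cholesterol (Cyp51, Tm7sf2, Msmo1, Nsdhl, Hsd17b7, Ebp, Sc5d and Dhcr7), 5 genes that control SREBP (Srebf1, Srebf2, Scap, Insig1 and Insig2), the sterol carrier Stard4, and 6 genes of fatty acid synthesis (Acly, Acaca, Fasn, Elovl6, Scd1 and Scd2). The first 18 are called sterol enzymes below.

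RNA and open chromatin were read from the same nuclei of C57BL/6J mouse liver cells with the 10x Multiome assay. The methods of the study describe male mice of 6 to 12 weeks. The cells were sorted as alive, CD45+, CD64- and CD11c+, which enriches dendritic cells but, as the classes below show, not these alone. They were taken after 0 days (D0) or 5 days (D5) on a diet containing 0.1% DDC, which is 3,5-diethoxycarbonyl-1,4-dihydrocollidine and injures the small bile ducts. The D0 mice had received no DDC. Each day was 1 library, and the number of animals pooled into it is not given in the sources used here. A difference between the days is therefore also a difference between 2 libraries, no test between days was possible, and every interval below is a 95% interval that covers counting error only.

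SREBP-2, encoded by Srebf2, switches on the genes of cholesterol synthesis, and SREBP-1, encoded by Srebf1, favours those of fatty acid synthesis. Both are bound in the endoplasmic reticulum by SCAP, which escorts them to the Golgi for cleavage when membrane sterol is low. INSIG proteins retain the SCAP complex in the endoplasmic reticulum when sterol is plentiful. Cleaved SREBP binds the sterol regulatory element (SRE) of its targets, usually beside a CCAAT box bound by NF-Y. In the liver most cholesterol is made by hepatocytes, whereas dendritic cells, NK cells and T cells run the same pathway for their own membranes, above all when they divide or mature.

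Because the genes share this control, the promoters of a few of them are shown here. The RefSeq table of promoters (build GRCm38.p6, from 250 bases before to 50 bases after the start) held 32 promoters of 24 of the 30 genes, and the letters CCAAT, or ATTGG on the other strand, stood in 21 of the 32 (65.6%), covering 20 genes, against 37.4% of 32851 promoters of all genes. The SRE letters TCACNCCAC, or GTGGNGTGA on the other strand, stood in 1 of the 32 (3.12%), that of Hmgcs1, against 1.24% of all promoters. A match of letters is a description and not a bound site, and the absence of a match says only that these letters are not in the window. The upstream 250 bases of 4 promoters are given 5′ to 3′ along the gene, with SRE and CCAAT or ATTGG letters in capitals. Hmgcs1 holds both motifs and lies at chr13:119690101-119690350 on the + strand. Mvd (chr8:122443423-122443672, - strand) and Msmo1 (chr8:64733579-64733828, - strand) hold 2 and 3 CCAAT boxes, and their RNA was lower at D5 in several classes. Elovl6 (chr3:129532136-129532385, + strand) holds neither motif. By the rule given below, it was called lower at D5 in more classes than any other of the 30 genes. The promoters of Mvk and Hsd17b7, not printed here, hold 5 and 3 CCAAT boxes. These 2 genes were called lower in 0 of the 2 and 0 of the 3 named classes where they passed. A link between the letters and the change between days was not tested.
Hmgcs1: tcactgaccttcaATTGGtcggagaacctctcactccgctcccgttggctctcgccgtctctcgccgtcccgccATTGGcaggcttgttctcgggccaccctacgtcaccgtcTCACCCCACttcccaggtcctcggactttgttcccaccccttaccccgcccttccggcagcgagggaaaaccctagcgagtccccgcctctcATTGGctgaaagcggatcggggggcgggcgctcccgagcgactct
Mvd: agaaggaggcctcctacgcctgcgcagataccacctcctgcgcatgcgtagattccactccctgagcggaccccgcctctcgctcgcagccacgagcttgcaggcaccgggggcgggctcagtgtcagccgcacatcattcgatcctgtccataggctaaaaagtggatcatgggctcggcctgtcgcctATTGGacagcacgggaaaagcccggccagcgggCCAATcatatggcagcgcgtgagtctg
Msmo1: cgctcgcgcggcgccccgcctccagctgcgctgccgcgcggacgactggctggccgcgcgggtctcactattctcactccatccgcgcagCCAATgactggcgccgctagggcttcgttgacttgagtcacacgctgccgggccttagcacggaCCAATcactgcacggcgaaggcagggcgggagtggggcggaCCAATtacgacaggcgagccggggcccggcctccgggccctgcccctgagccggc
Elovl6: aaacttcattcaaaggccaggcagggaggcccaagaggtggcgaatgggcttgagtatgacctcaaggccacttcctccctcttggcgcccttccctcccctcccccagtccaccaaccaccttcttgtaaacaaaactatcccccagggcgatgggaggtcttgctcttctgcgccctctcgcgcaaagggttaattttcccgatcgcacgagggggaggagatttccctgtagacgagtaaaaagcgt

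The RNA layer held 44496348 UMIs (unique molecular identifiers, counted molecules) in 16260 barcodes at D0 and 94374499 UMIs in 27873 barcodes at D5, with medians of 1799 and 2790 per barcode, and 591 barcode sequences occurred in both libraries. After filtering, 10982 nuclei at D0 and 19832 at D5 were clustered without the 30 genes, and clusters were named from marker genes. The 8 larger classes were cDC1-like (type 1 conventional dendritic cells, 1753 nuclei at D0 and 3155 at D5), cDC2-like (type 2, 1762 and 5546), preDC-like (a precursor-like state, 232 and 1429), Ccr7+ DC-like (mature dendritic cells, 302 and 965), pDC-like (plasmacytoid dendritic cells, 2319 and 1984), macrophage-like (758 and 1234), NK cell-like (1435 and 1110) and T cell-like (344 and 427). The defining genes of the sort were present in part: Ptprc (CD45) and Itgax (CD11c) were found in every named class, and Fcgr1 (CD64), which the sort selected against, stood at 40.5 CPM at D0 and 78.9 CPM at D5 in macrophage-like nuclei. CPM are UMIs per 1000000 UMIs of the class. Levels are from nuclei, and a lower sum cannot tell less RNA per nucleus from fewer nuclei that hold the RNA.

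Across the 8 larger classes, RNA of the 30 genes was more often lower than higher at D5. A gene was called lower or higher in a class when it differed at least 1.5-fold and held at least 50 UMIs over both days. By this rule there were 46 calls of lower (24.3%) and 5 of higher (2.65%) over the 189 pairs of a gene and a class that passed the minimum. Over all genes, 14.8% of 66266 such pairs were called lower and 6.10% higher. Of the 30 genes, 21 were called lower in at least 1 class, 4 were called higher in at least 1 class and 5 were never called. The same counts by gene were not made over all genes. Each of the 30 genes passed the minimum in at least 1 of these classes. The classes differed in how far the group stood from all other genes. The median log2 ratio of the genes that passed, minus the median of all genes tested in that class, was -0.36 in preDC-like, -0.41 in Ccr7+ DC-like, -0.49 in T cell-like, -0.20 in pDC-like, -0.15 in NK cell-like and -0.11 in cDC2-like nuclei, but 0.03 in cDC1-like and -0.03 in macrophage-like nuclei. These medians rest on different sets of genes, from 8 in T cell-like to 30 in cDC2-like nuclei, so their order is not a like comparison. The median over all genes was itself below 0, between -0.22 and -0.05. With TMM scaling, which sets a trimmed mean of the gene ratios to 0, the calls were 24 lower and 19 higher. The log2 ratio of the factors was -0.33 to -0.14, and the ratios of a class were raised by as much. In each class this shift was larger than the median over all genes, in cDC1-like nuclei -0.33 against -0.22. The median gene therefore stood above 0 after TMM scaling. The shares of all genes called with TMM scaling, or under any other alternative setting, were not computed. Here and below, counts under such settings therefore stand without a background, and the shares given are those of the main setting.

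**Figure D1:**
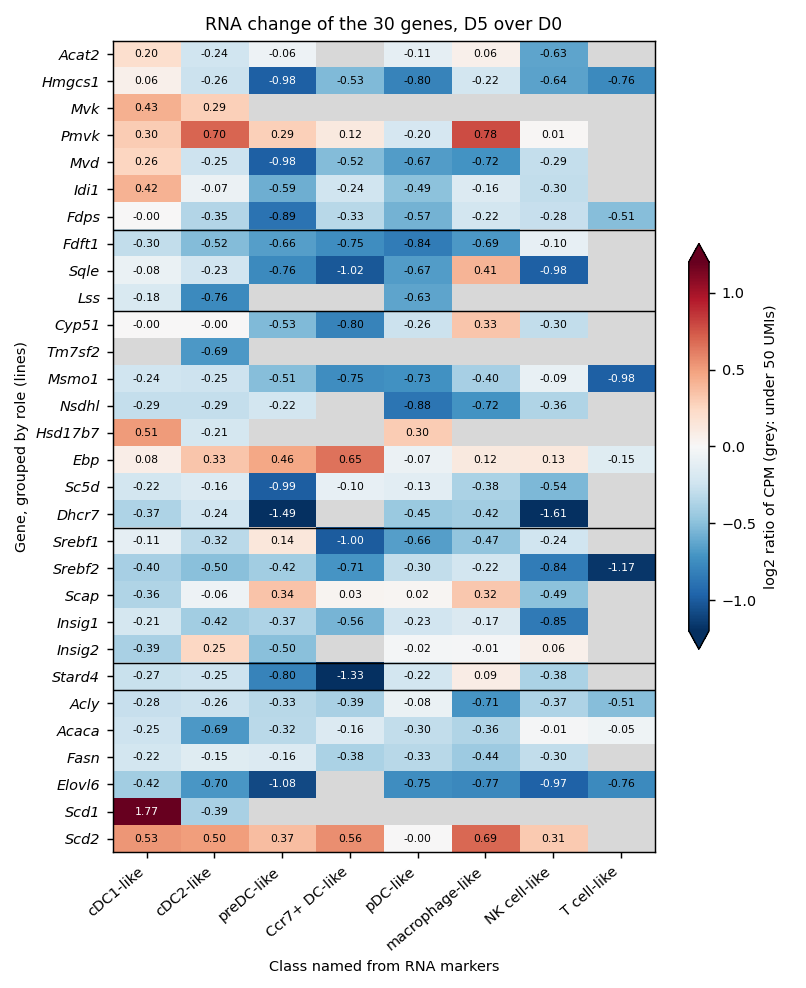
Heat map of the log2 ratio of CPM, D5 over D0, for the 30 genes (rows, grouped by role) in 8 classes (columns), with grey for genes under 50 UMIs over both days. Values below 0 (blue, lower at D5) outnumber values above 0 (red) in every column. Elovl6 and Srebf2 are blue in every class where they have a value, and Scd2 and Ebp are mostly red. The colours are not shifted by TMM scaling.

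In cDC2-like nuclei, the class that the study centres on, the genes as a group moved little. Of the 30 genes, all passed the minimum, 4 (Lss, Tm7sf2, Acaca and Elovl6) were called lower and 1 (Pmvk) higher, where 15.0% of all genes tested were called lower and 5.03% higher. The median log2 ratio was -0.25, against -0.14 for all 10773 genes tested, and 0.01 after TMM scaling, where 0 genes were called lower and 2 higher. The 18 sterol enzymes together stood at 617 CPM at D0 and 579.8 CPM at D5, a log2 ratio of -0.09 (-0.16 to -0.02).

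Among the mevalonate genes in cDC2-like nuclei, Hmgcs1, whose product makes HMG-CoA at the entry of the pathway, stood at 71.3 CPM at D0 and 59.4 CPM at D5 (log2 ratio -0.26, -0.47 to -0.06). Fdps, which makes farnesyl diphosphate, stood at 113 and 88.5 CPM (-0.35, -0.51 to -0.19). Pmvk (phosphomevalonate kinase) went the other way, from 46.4 to 75.5 CPM (0.70, 0.46 to 0.95). It was the 1 gene called higher in this class. For the other genes of these steps the intervals included 0. Idi1 (isopentenyl diphosphate isomerase) stood at 50.1 and 47.6 CPM (-0.07), Mvd (mevalonate diphosphate decarboxylase) at 25.8 and 21.7 CPM (-0.25), and Acat2, which makes acetoacetyl-CoA, at 10.8 and 9.12 CPM (-0.24). Mvk (mevalonate kinase) was low on both days, at 7.92 and 9.69 CPM (0.29).

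Among the enzymes that follow, most levels were close on the 2 days. Fdft1 (squalene synthase) stood at 27.5 CPM at D0 and 19.1 CPM at D5 (-0.52, -0.86 to -0.18), and Lss (lanosterol synthase) at 7.36 and 4.34 CPM (-0.76, -1.43 to -0.05). Sqle (squalene epoxidase) stood at 32.6 and 27.7 CPM (-0.23, -0.53 to 0.08). After lanosterol, Cyp51, the sterol demethylase, had nearly the same level on both days, 72.5 and 72.3 CPM, with an interval of -0.20 to 0.20. Ebp, a sterol isomerase, was higher at D5, 38.8 against 48.6 CPM (0.33, 0.06 to 0.60), and Msmo1 (methylsterol monooxygenase) lower, 51.8 against 43.7 CPM (-0.25, -0.48 to -0.00). Sc5d (sterol desaturase) stood at 27.7 and 24.9 CPM (-0.16), Nsdhl (sterol dehydrogenase) at 11.3 and 9.25 CPM (-0.29), Dhcr7 (a reductase of the last steps) at 11.04 and 9.38 CPM (-0.24) and Hsd17b7 (a sterol ketoreductase) at 7.64 and 6.61 CPM (-0.21), each with an interval that included 0. Tm7sf2, a sterol reductase, was called lower but held 14 UMIs in the D0 sum and 39 in that of D5, or 3.96 and 2.45 CPM (-0.69, -1.60 to 0.30).

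Of the genes that control SREBP, Srebf2 stood at 235 CPM at D0 and 167 CPM at D5 in cDC2-like nuclei (-0.50, -0.61 to -0.38), and Insig1, itself a target of SREBP, at 58.3 and 43.6 CPM (-0.42, -0.65 to -0.19). Both intervals lay below 0 while neither gene was called. Srebf1 stood at 27.2 and 21.8 CPM (-0.32), Scap at 23.5 and 22.5 CPM (-0.06) and Insig2 at 11.04 and 13.1 CPM (0.25), with intervals that included 0. The sterol carrier Stard4 stood at 34.8 and 29.3 CPM (-0.25, -0.54 to 0.05). In fatty acid synthesis, Acaca (acetyl-CoA carboxylase) stood at 93.96 and 58.3 CPM (-0.69, -0.87 to -0.50) and Elovl6, which lengthens palmitate, at 28.0 and 17.2 CPM (-0.70, -1.04 to -0.35), and both were called lower. Acly (ATP citrate lyase), at 62.3 and 51.9 CPM (-0.26), was lower without a call. Fasn (fatty acid synthase), at 30.3 and 27.3 CPM (-0.15), and Scd1 (a stearoyl-CoA desaturase), at 5.38 and 4.09 CPM (-0.39), had intervals that included 0. Scd2, the other desaturase in the list, was higher at D5, 45.9 against 64.6 CPM (0.50, 0.25 to 0.74).

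In cDC1-like nuclei, of 29 genes that passed, 0 were called lower and 1 was called higher, with 18.8% of all genes called lower and 3.42% higher. The 18 sterol enzymes stood at 642 CPM at D0 and 655 CPM at D5 (0.03, -0.04 to 0.09), and the median of the 30 genes was -0.18, against -0.22 for all genes and 0.15 after TMM scaling, which gave 7 calls of higher. Scd1 was the gene called higher, from 8 UMIs (1.87 CPM) to 68 UMIs (6.40 CPM), a log2 ratio of 1.77 (0.71 to 3.04). Idi1 stood at 40.8 and 54.6 CPM (0.42, 0.17 to 0.67) and Scd2 at 75.2 and 108 CPM, neither of them quite 1.5-fold higher. Proliferation genes, summed over a list of 12, stood at 1102 CPM at D0, the highest level of the classes, and at 850.1 CPM at D5, when T cell-like nuclei stood at 875 CPM. Without nuclei that held 3 or more UMIs of that list, 0 genes were called lower and 5 higher, and the part of proliferation in the values of this class was not tested further.

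preDC-like nuclei showed the largest number of genes called lower among the classes. Of 25 genes that passed, 10 were called lower and 0 higher, where 16.9% of all genes were called lower and 10.1% higher. The sterol enzymes stood at 1074 CPM at D0 and 730.2 CPM at D5 (-0.56, -0.70 to -0.41). In the mevalonate steps, Hmgcs1 stood at 142 and 72.2 CPM (-0.98), Mvd at 43.4 and 21.95 CPM (-0.98), Fdps at 234 and 126 CPM (-0.89) and Idi1 at 79.5 and 52.9 CPM (-0.59). In the later steps, Sqle stood at 52.98 and 31.2 CPM (-0.76), Fdft1 at 43.4 and 27.5 CPM (-0.66) and Sc5d at 57.8 and 29.1 CPM (-0.99). Dhcr7 had the largest ratio of this class, 31.3 against 11.1 CPM (-1.49), but it rested on few UMIs and became 0.04 when every nucleus was thinned to 1000 UMIs. Stard4 stood at 50.6 and 29.1 CPM (-0.80) and Elovl6 at 60.2 and 28.6 CPM (-1.08). All of these intervals lay below 0 except that of Fdft1. The D0 sum of this class came from 232 nuclei and 415260 UMIs, and with TMM scaling 6 genes were called lower and 3 higher.

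In Ccr7+ DC-like nuclei, 20 genes passed, 7 were called lower and 1 higher, where 11.6% of all genes were called lower and 10.6% higher. The sterol enzymes stood at 1203 CPM at D0 and 903 CPM at D5 (-0.41, -0.53 to -0.30). The calls lay in later sterol steps and in control: Fdft1 stood at 50.6 and 30.2 CPM (-0.75), Sqle at 47.7 and 23.5 CPM (-1.02), Cyp51 at 164 and 94.3 CPM (-0.80) and Msmo1 at 109 and 64.5 CPM (-0.75). Srebf2 stood at 264 and 161 CPM (-0.71), Srebf1 at 25.3 and 12.7 CPM (-1.0) and Stard4 at 58.1 and 23.1 CPM (-1.33). Ebp was called higher, 23.8 against 37.3 CPM (0.65), with an interval that included 0. TMM scaling gave 6 calls of lower and 2 of higher.

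pDC-like nuclei gave 9 genes called lower and 0 higher of 27 that passed, where 8.21% of all genes were called lower, the smallest such share of the 8 classes, and 4.75% higher. The sterol enzymes stood at 655 CPM at D0 and 464 CPM at D5 (-0.50, -0.59 to -0.41), and their median ratio was -0.53, against -0.11 for all genes. Hmgcs1 stood at 98.2 and 56.5 CPM (-0.80), Mvd at 21.5 and 13.5 CPM (-0.67), Fdft1 at 29.5 and 16.5 CPM (-0.84) and Sqle at 40.8 and 25.7 CPM (-0.67). Msmo1 stood at 69.0 and 41.6 CPM (-0.73), Nsdhl at 21.5 and 11.6 CPM (-0.88) and Lss at 12.2 and 7.84 CPM (-0.63, with an interval that included 0). Outside the sterol enzymes, Srebf1 stood at 34.6 and 21.9 CPM (-0.66) and Elovl6 at 90.2 and 53.8 CPM (-0.75). With TMM scaling 5 genes were called lower and 0 higher, and without removal of doublets 4 of 30 were called lower and 1 higher.

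In macrophage-like nuclei, 25 genes passed, 5 were called lower and 2 higher, where 18.3% of all genes were called lower and 4.74% higher. Lower were Mvd (21.6 and 13.1 CPM), Fdft1 (24.2 and 14.96 CPM), Nsdhl (16.99 and 10.3 CPM, interval including 0), Acly (84.3 and 51.4 CPM) and Elovl6 (24.2 and 14.2 CPM), with log2 ratios of -0.77 to -0.69. Higher were Pmvk (36.6 and 62.8 CPM, 0.78) and Scd2 (40.5 and 65.6 CPM, 0.69). All of the calls of lower in this class were lost with TMM scaling, which gave 0 lower and 5 higher. The calls of lower were 2 without removal of doublets, 1 with nuclei thinned to 1000 UMIs and 0 with the coarser clustering (Leiden resolution 0.5). Transcripts of hepatocytes, the cells with the most active sterol synthesis in the liver, moved with the day in this class and in others: a list of 10 hepatocyte genes summed to 134 CPM at D0 and 42.2 CPM at D5 (10 of 10 detected on both days), and in the other 8 named classes it was between 10.2 and 42.7 CPM at D0 and between 5.81 and 70.6 CPM at D5. The list was also lower at D5, with intervals below 0, in preDC-like nuclei (21.7 and 8.20 CPM), cDC2-like nuclei (42.7 and 20.8 CPM) and cDC1-like nuclei (12.9 and 7.62 CPM). Without nuclei that held 2 or more UMIs of that list, the number of genes called lower was again 5 in macrophage-like nuclei, and it was the same as with them in each of the other 7 larger classes. Such nuclei were 5.94% of macrophage-like nuclei at D0 and 1.62% at D5, and at most 1.19% in the other 7 classes. Nuclei with fewer UMIs of the list stayed in. The part of hepatocyte RNA in the values was therefore not tested.

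In NK cell-like nuclei, 25 genes passed, 7 were called lower and 0 higher, where 13.8% of all genes were called lower and 5.29% higher. Dhcr7 stood at 23.6 CPM at D0 and 7.70 CPM at D5 (-1.61), Sqle at 16.1 and 8.16 CPM (-0.98) and Elovl6 at 70.3 and 35.8 CPM (-0.97). Insig1 stood at 37.7 and 20.8 CPM (-0.85), Srebf2 at 131 and 72.95 CPM (-0.84), Hmgcs1 at 43.7 and 28.1 CPM (-0.64) and Acat2 at 19.6 and 12.7 CPM (-0.63, interval including 0). In T cell-like nuclei depth limited the comparison: 8 genes passed, and 4 were called lower and 0 higher, where 15.0% of all genes were called lower and 7.83% higher. These were Srebf2 (120 and 53.5 CPM, -1.17), Msmo1 (55.1 and 27.9 CPM, -0.98), Hmgcs1 and Elovl6 (both 53.1 and 31.4 CPM, -0.76, intervals including 0). Nonclassical monocyte-like nuclei (121 and 214) were too few for all but Srebf2, at 131 CPM at D0 and 84.2 CPM at D5 (-0.63, -1.47 to 0.23). An unnamed cluster led by Il1r2 and Dab2 (277 nuclei at D0 and 2769 at D5) gave 6 genes called lower (Fdft1, Sqle, Sc5d, Srebf1, Fasn and Elovl6) and 3 higher (Mvk, Hsd17b7 and Scd1) of 28, where 18.5% of all genes were called lower and 12.0% higher. The 3 higher genes held 1 or 2 UMIs each at D0.

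Read gene by gene, 14 of the 30 genes were lower at D5 in every class where they passed, a number that was 2 with TMM scaling (Elovl6 in 7 classes and Tm7sf2 in 1), and 5 were called lower in at least 4 classes (Hmgcs1, Fdft1, Sqle, Srebf2 and Elovl6). Here the nonclassical monocyte-like nuclei, which are outside the 8 larger classes, were counted too. They gave 1 of the 4 calls of Srebf2, with an interval that included 0. No such counts were made over all genes, whose median was below 0 in every class, so these counts stand without a background. Srebf2 was lower in 9 of 9 classes (log2 ratio -1.17 to -0.22) and below the median of all genes in 9 of 9. With TMM scaling it was lower in 8, and the macrophage-like value was 0.08. Elovl6 was lower in 7 of 7 classes (-1.08 to -0.42), also with TMM scaling, and was called in 6 of them. Fdft1 was lower in 7 of 7 classes and called in 4, Hmgcs1 in 7 of 8 and called in 4, and Sqle in 6 of 7 and called in 4. With TMM scaling these 3 genes were lower in 5 of 7, 6 of 8 and 4 of 7 classes. The classes share the 2 libraries, so agreement among them is not a set of independent observations. Of the desaturases, Scd1 passed in 2 classes, and was called higher in cDC1-like nuclei (1.77) and stood at -0.39 in cDC2-like nuclei. The ratio of Scd2 lay between -0.00 and 0.69 in 7 classes and was above the median of all genes in each. Pmvk was lower in 1 of 7 classes and Ebp in 2 of 8. Lists of genes called lower overlapped in part between classes: 5 genes (Hmgcs1, Mvd, Fdft1, Sqle and Elovl6) were shared by the 10 of preDC-like and the 9 of pDC-like nuclei, and 3 (Fdft1, Sqle and Stard4) by the 10 of preDC-like and the 7 of Ccr7+ DC-like nuclei. The overlap of such lists over all genes was not computed.

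The level of each gene by class was the second comparison, made within each library so that the days do not enter. Ccr7+ DC-like nuclei had the highest CPM for 10 of the 30 genes at D0 and for 9 at D5, and the same class was highest on both days for 17 genes. For 2 of these the interval lay apart from that of the next class on both days. Idi1 stood at 186 CPM (155 to 222) in Ccr7+ DC-like nuclei at D0, above 79.5 CPM (54.7 to 112) in preDC-like nuclei, and at 158 CPM at D5, above 54.6 CPM in cDC1-like nuclei. Scap, the escort protein of SREBP, stood at 85.8 CPM in pDC-like nuclei at D0 and 86.8 CPM at D5, above 34.4 CPM in cDC1-like and 36.5 CPM in preDC-like nuclei. For the other genes the interval of the highest class overlapped that of the next on at least 1 day. The share of all genes that were highest in each class was not computed, so the counts of highest classes stand without a background. No minimum of UMIs was set for this order. Of the genes highest in Ccr7+ DC-like nuclei at D0, Mvk, Hsd17b7 and Nsdhl held 13, 12 and 16 UMIs there. Sums differed in size, with 671426 UMIs in Ccr7+ DC-like and 4267992 in cDC1-like nuclei at D0. preDC-like nuclei, with 415260 UMIs at D0 and 3780933 at D5, were highest for 5 genes at D0 and for 1 at D5. Hmgcs1 was highest in Ccr7+ DC-like nuclei, at 182 CPM at D0, where the interval overlapped that of preDC-like nuclei, and 126 CPM at D5. Its lowest level was in NK cell-like nuclei, at 43.7 and 28.1 CPM. Srebf2 was highest in cDC1-like nuclei, at 286 and 216 CPM, and lowest in T cell-like nuclei, at 120 and 53.5 CPM. Fatty acid genes had other orders than sterol genes. Elovl6 was highest in pDC-like nuclei (90.2 and 53.8 CPM) and lowest in Ccr7+ DC-like nuclei (11.9 and 8.20 CPM), and Fasn and Scd2 were highest in cDC1-like nuclei on both days.

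The sum of the 18 sterol enzymes, made of the same values, was also highest in Ccr7+ DC-like nuclei on both days. Single enzymes differed: Acat2 was lowest in that class on both days and Dhcr7 at D0. These levels rested on 3 UMIs of Acat2 and 6 of Dhcr7 at D0. Against cDC2-like nuclei of the same library, the log2 ratio of the sum was 0.96 (0.84 to 1.08) in Ccr7+ DC-like nuclei at D0 and 0.64 (0.57 to 0.70) at D5. In preDC-like nuclei it was 0.80 and 0.33. In NK cell-like nuclei it was -0.46 at D0 and -0.72 at D5, and the TMM values were lower still, at -0.78 and -1.04. The fatty acid genes together were lower in Ccr7+ DC-like than in cDC2-like nuclei, at -0.37 and -0.20, and higher in cDC1-like nuclei, at 0.38 and 0.60.

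**Figure D2:**
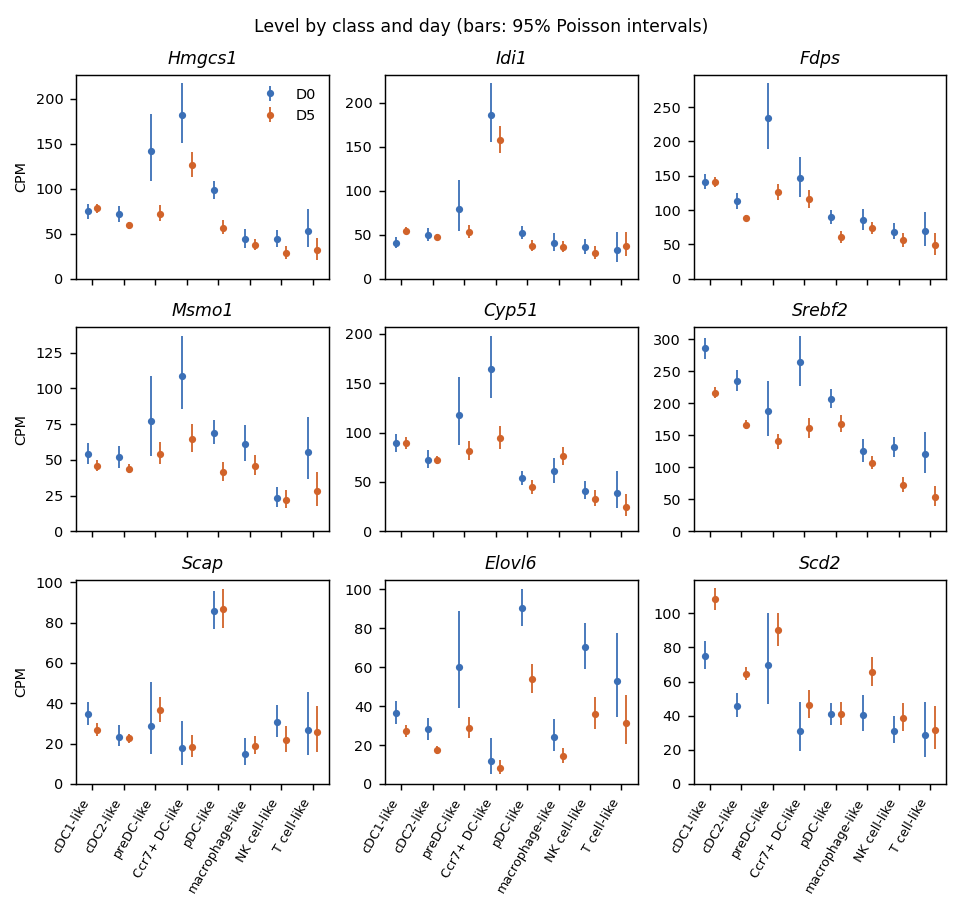
CPM of 9 of the genes in 8 classes at D0 (blue) and D5 (orange), with 95% Poisson intervals as bars and each vertical axis starting at 0. Idi1, Hmgcs1 and Cyp51 peak in Ccr7+ DC-like nuclei, Scap and Elovl6 in pDC-like nuclei and Srebf2 and Scd2 in cDC1-like nuclei; Srebf2 sits lower at D5 in every class.

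Within pDC-like nuclei the genes split by cluster. These nuclei formed 2 clusters, number 11 (458 nuclei at D0 and 260 at D5, led by Srl and Sema4b) and number 12 (1861 and 1724, led by Cmah). The sterol enzymes stood at 1098 CPM in cluster 11 and 550.0 CPM in cluster 12 at D0, a log2 ratio of 1.0 (0.88 to 1.12), and at 671 and 434 CPM at D5 (0.63, 0.45 to 0.81). At D0, 25 genes passed, and 12 were called higher in cluster 11 and 0 lower, where 13.1% of all genes were called higher and 11.0% lower. At D5, 23 passed, and 7 were called higher and 3 lower, where 10.7% were higher and 12.9% lower. The 7 genes called higher at D5 (Hmgcs1, Mvd, Fdft1, Cyp51, Msmo1, Insig1 and Scap) were called higher at D0 too. Hmgcs1 stood at 215 CPM in cluster 11 against 70.4 CPM in cluster 12 at D0 (1.61, 1.31 to 1.91) and at 112 against 48.6 CPM at D5 (1.2, 0.72 to 1.66). Fdft1 stood at 69.99 against 19.8 CPM at D0 (1.82) and 38.7 against 13.3 CPM at D5 (1.54). Msmo1 stood at 148 against 50.2 CPM at D0 (1.56) and 66.7 against 38.0 CPM at D5 (0.81). The 30 genes were left out of the clustering, but genes that vary with them were not, so this is a description of the clusters and no test. Between the days, the median ratio, D5 over D0, was -0.34 over 16 genes in cluster 11 and -0.28 over 25 in cluster 12, against -0.11 and -0.10 for all genes. In cluster 11, 7 genes were called lower and 0 higher, where 11.4% of all genes were called lower and 8.07% higher. In cluster 12, which held most pDC-like nuclei, 3 genes (Mvd, Nsdhl and Elovl6) were called lower and 0 higher, where 7.67% of all genes were lower and 5.43% higher, against 9 called lower in the class as a whole.

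The study compared precursor-like with Clec10a+ states of cDC2, and states named for these from markers were compared here. The preDC-like cluster raised 3 of 6 precursor markers, with 0 of them among its 10 leading genes. Both pDC-like clusters raised 4 of the same 6. The Clec10a+ nuclei raised 3 of 5 markers. Whether these are the states of the study was not tested. Relative to Clec10a+ cDC2-like nuclei of the same library, the sterol enzymes of preDC-like nuclei had a log2 ratio of 0.95 (0.79 to 1.10) at D0 (232 against 1033 nuclei) and 0.34 (0.28 to 0.41) at D5 (1429 against 3036 nuclei). At D0, 14 of 20 genes were called higher and 0 lower, where 33.2% of all genes were called higher and 14.5% lower. At D5, 7 of 29 were called higher and 1 lower, where 30.9% were higher and 8.89% lower, so the share of these genes called higher at D5 was not above the background. The median of the genes that passed was 0.85 at D0 and 0.39 at D5, against 0.28 and 0.32 for all genes, and 0.37 and 0.02 with TMM scaling. Elovl6 and Fdft1 were called higher on both days. Elovl6 stood at 60.2 against 25.97 CPM at D0 and 28.6 against 16.7 CPM at D5, and Fdft1 at 43.4 against 19.9 CPM and 27.5 against 17.04 CPM. Hmgcs1 stood at 142 against 57.97 CPM at D0 (1.29, 0.82 to 1.75) and 72.2 against 56.8 CPM at D5 (0.35, 0.13 to 0.56), so its level in Clec10a+ nuclei was close on the 2 days and the preDC-like level was not. Srebf2 was not higher in preDC-like nuclei on either day, at 188 against 225 CPM and 140.2 against 162 CPM.

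**Figure D3:**
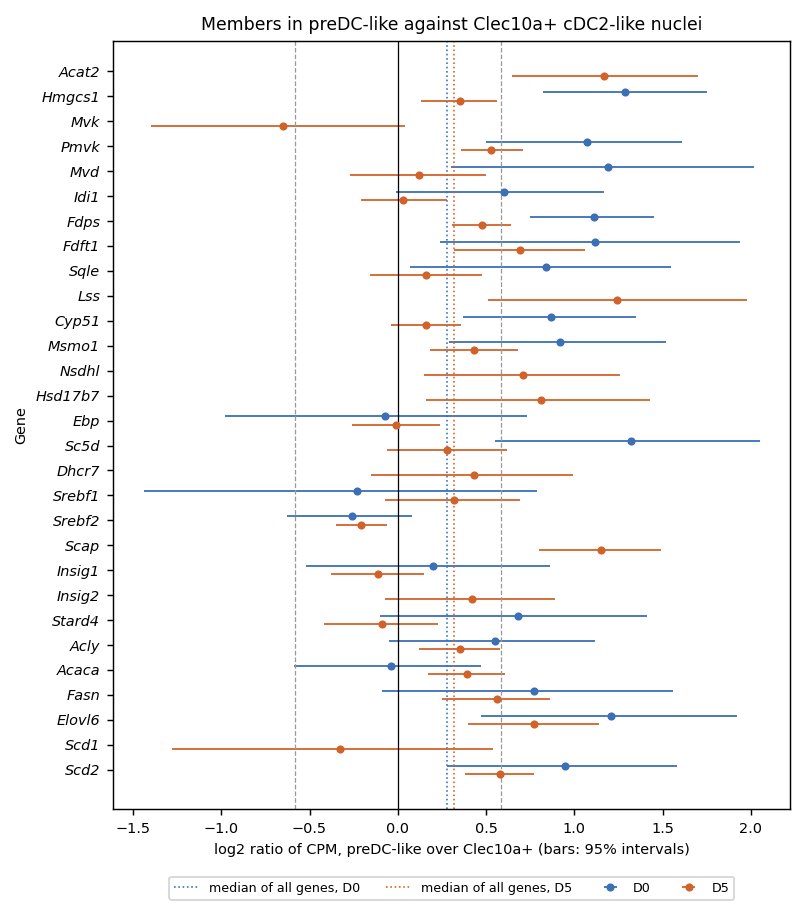
Log2 ratio of CPM in preDC-like over Clec10a+ cDC2-like nuclei for each gene that passed, at D0 (blue) and D5 (orange), with 95% intervals as bars, dashed lines at 1.5-fold and dotted lines at the median of all genes. The D0 points lie to the right of the D5 points for most sterol enzymes, with wider bars because the D0 state held 232 nuclei.

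Open chromatin at the start sites was read beside the RNA, and no measure of agreement between them was computed. Peaks of both libraries overlapped in 127216 shared regions, and 46 of these lay within 2 kb of a start site of 29 of the 30 genes, with none for Acaca. Values are fragments per 1000000 fragments of the class in shared regions. A window was called higher when it stood at least 25% higher at D5, and lower when it stood as much higher at D0, with at least 50 fragments over both days. In cDC2-like nuclei 0 of 29 windows were called lower and 0 higher, where 11.4% of the windows of all genes were lower and 3.67% higher. In pDC-like nuclei, where 9 genes were called lower in RNA, again 0 and 0 of 29 were called (10.6% lower and 2.37% higher over all genes), with ratios between -0.18 and 0.17. cDC1-like nuclei gave 0 and 0 of 29 (9.72% lower and 3.07% higher). The medians over the windows lay between -0.05 and 0.09 in the 8 classes.

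Calls appeared in the smaller classes, where intervals were wide. preDC-like nuclei gave 1 window lower and 7 higher (background 11.6% and 17.8%), while 10 genes were lower in RNA and 0 higher. The Fdft1 window stood at 41.1 fragments at this scale at D0 and 65.7 at D5 (0.68, 0.21 to 1.18), and the Ebp window at 11.02 and 21.1 (0.94, 0.04 to 1.98), and these were the 2 windows with an interval above 0. Ccr7+ DC-like nuclei gave 5 lower and 2 higher (10.7% and 13.4%), each with an interval that included 0. Among these, Stard4 was called lower (-0.38) and Ebp higher (0.49), as in RNA. The other genes with a called window there were not called in RNA or were under its minimum. Macrophage-like nuclei gave 0 lower and 3 higher (8.07% and 8.60%), and of these the Idi1 window had an interval above 0 (0.33, 0.06 to 0.60). T cell-like nuclei gave 1 lower and 3 higher (11.9% and 9.92%). Of these, the windows of Hmgcs1 (0.41, 0.02 to 0.81) and Msmo1 (0.52, 0.12 to 0.92) had intervals above 0, while both genes were called lower in RNA. NK cell-like nuclei gave 1 lower and 0 higher (8.29% and 6.04%). The window called lower there was Elovl6, at 59.1 and 47.0 fragments (-0.33, -0.61 to -0.06), which was lower in RNA too. The Hmgcs1 window, which covers the promoter printed above, stood at 80.5 and 79.9 in cDC2-like, 59.7 and 63.4 in pDC-like and 69.1 and 63.2 in preDC-like nuclei. The windows of Mvk, Nsdhl, Hsd17b7, Dhcr7, Insig1 and Elovl6 shared a region with the window of another gene.

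**Figure D4:**
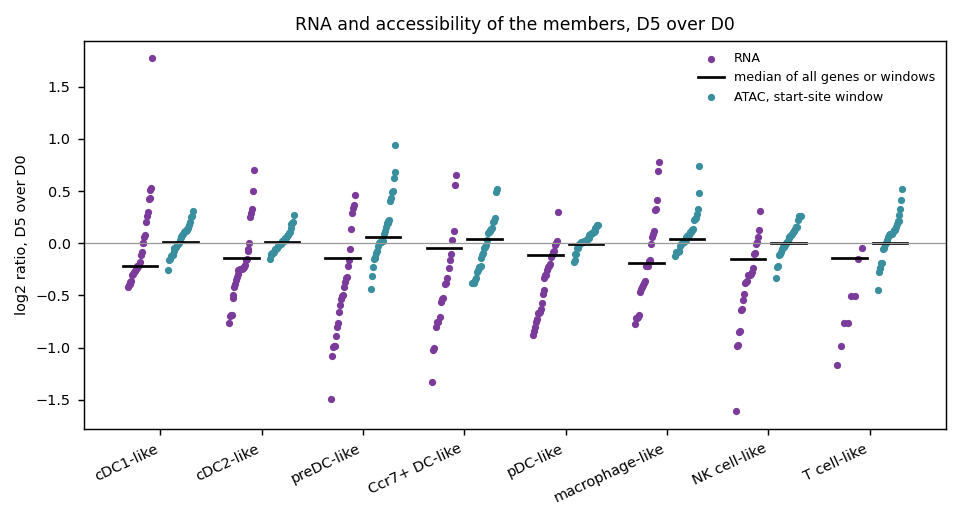
Log2 ratios, D5 over D0, of RNA (purple) and of start-site windows in ATAC (teal) for the genes that passed in 8 classes, each set sorted from low to high, with black bars at the median of all genes or windows. RNA points reach below the black bar in all 8 classes, farthest in NK cell-like nuclei (-1.61) and least far in cDC1-like nuclei (-0.42), while ATAC points of the large classes stay near 0.

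A further 21 genes of the pathway, such as proteases that cleave SREBP, prenyl and fatty acid enzymes and sterol traffic genes, gave 21 calls of lower (16.3%) and 10 of higher (7.75%) over 129 pairs of a gene and a class. The difference from the 30 genes was not tested. In cDC2-like nuclei 20 passed, 0 were called lower and 1 higher, the fatty acid desaturase Fads1, at 4.81 CPM at D0 and 10.3 CPM at D5 (1.10, 0.38 to 1.92). Lower and higher calls were 3 and 1 of 20 in cDC1-like, 5 and 4 of 19 in preDC-like, 2 and 1 of 12 in Ccr7+ DC-like, 2 and 0 of 17 in pDC-like, 5 and 2 of 18 in macrophage-like, 4 and 0 of 16 in NK cell-like and 0 and 1 of 7 in T cell-like nuclei. Depth moved with the day in the same way in every class, from a median of 1856 to 2667 UMIs per nucleus in cDC2-like and from 1539 to 1736 in pDC-like nuclei. With nuclei thinned to 1000 UMIs the number of genes called lower was 4 in cDC2-like, 9 in preDC-like and 8 in pDC-like nuclei. It was 4 in Ccr7+ DC-like, 1 in macrophage-like, 4 in NK cell-like and 2 in T cell-like nuclei. Fewer genes were past the minimum in each of these classes. The shares of all genes called lower after thinning were not computed. Transcripts of a list of 6 bile duct markers went opposite to the hepatocyte list in cDC2-like (41.0 and 64.3 CPM) and macrophage-like nuclei (22.9 and 90.6 CPM). The list of 6 stood lower at D5 in T cell-like (65.3 and 58.1 CPM) and nonclassical monocyte-like nuclei (29.7 and 19.0 CPM), with intervals that included 0. Epcam, which is on it, was among the leading genes of the unnamed Il1r2 and Dab2 cluster. The source of these transcripts and their part in the values above were not tested.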

How the data were processed

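RNA and ATAC were read in the same nuclei (10x Multiome), with 1 library per day. The deposited matrices hold raw counts on build mm10: UMI counts per gene and barcode made by the authors with Cell Ranger 6.0.2, and joint counts of genes and peaks made with Cell Ranger ARC 2.0.2. Peak counts were halved to fragments, since most entries were even. The joint matrix of D5 had no barcodes in the files used here, so its columns were joined to the RNA nuclei by identical gene counts (27873 of 27873).

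Nuclei with at least 1000 UMIs, at most 10% mitochondrial UMIs and a doublet score under 0.2 were kept. The score removed 3296 nuclei (23.1%) at D0 and 6801 (25.5%) at D5. Clustering used scanpy 1.11.5 (2000 variable genes, 30 components, Leiden resolution 1.0) without the 30 genes and the 21 other pathway genes. A cluster was named "-like" from markers raised at least 2-fold (states 1.25-fold), with thresholds set with the clusters in view. preDC-like nuclei came out as a cluster of their own among all nuclei, not within cDC2-like nuclei as planned. UMIs were summed per class and day, scaled to CPM, and given with exact Poisson intervals, ratios with exact conditional intervals (95%). No test was possible with 1 library per day. TMM factors came from edgeR 4.0.16. Promoters came from RefSeq (GRCm38.p6, the same coordinates as mm10). The text gives values for each gene called in a class and for all 30 genes in cDC2-like nuclei. The members and lists were chosen with earlier results of these data known.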

Additional observations from a re-analysis of the deposited data

Results flagged for a closer look

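Idi1 had ratios of opposite sign in 2 dendritic cell classes of the same libraries, which were its highest and lowest values among the classes. Its log2 ratio, D5 over D0, was 0.42 (0.17 to 0.67) in cDC1-like nuclei and -0.59 (-1.12 to -0.01) in preDC-like nuclei. These ratios differ by 1.01. Among the genes described here, Idi1 was picked for having an interval above 0 in 1 class and below 0 in another. That the 2 intervals do not overlap therefore follows from this choice and is no evidence of a difference between the classes. With TMM scaling the ratios were 0.75 and -0.32. The same shift, -0.27 in preDC-like nuclei, would bring 0 into the preDC-like interval. The preDC-like value rested on 33 UMIs at D0. The difference was not tested, since each day was 1 library.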

How the results depend on the processing

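No paired analysis was possible because each day was 1 library and no result comes from a test. Of 163 alternative values of the main results 144 stayed within a set range or, for counts, within 1.5 times. Of 481 values for single genes 471 stayed within the counting interval. A change of the minimum cannot move the ratio of a single gene, so the values of those settings stayed by construction. The 471 therefore does not measure how stable single genes are. For sums over genes the range was the counting interval. For medians over genes it ran from the median of the single-gene lower bounds to that of the upper bounds. That is not an interval of the median. In preDC-like nuclei it was -1.12 to 0.15 around -0.50, wide beside the TMM shift of -0.27. The 144 therefore does not measure how stable the medians are. The 46 calls of lower were 24 with TMM and 24 with median-of-ratios scaling, 6 with 2-fold calls, 16 with a minimum of 200 UMIs (42 as reported in the 7 classes run) and 26 among nuclei with at least 2000 UMIs (32 in the 6 classes run). The 5 calls of higher were 19 with TMM, 18 with median-of-ratios, 13 with a minimum of 1 UMI, 3 with 200 UMIs, 1 with 2-fold calls, 8 among nuclei with at least 2000 UMIs and 9 without proliferating nuclei. All of these counts stand without the share of all genes called under the same setting. The cDC1-like median was 0.15 with TMM, and the preDC-like over Clec10a+ median at D5 was 0.02. The sterol enzyme sum of Ccr7+ DC-like over cDC2-like nuclei was 0.82 at D0 and 0.53 at D5 without doublet removal and 0.56 at D5 with TMM, and that of NK cell-like nuclei -0.78 and -1.04 with TMM. TMM across classes and across the pDC-like clusters was chosen after seeing the data. Dhcr7 in preDC-like nuclei reversed to 0.04 when nuclei were thinned to 1000 UMIs. Scaling shifts every ratio of a class by 1 amount and a higher minimum removes genes by construction; for the other moves the cause was not tested. Not run for want of nuclei or genes were the 200-UMI minimum in T cell-like nuclei, the 2000-UMI nuclei in preDC-like and T cell-like nuclei, and the coarser clustering in NK cell-like and, for the days, T cell-like nuclei. Genes under 50 UMIs, among them 22 of the 30 in T cell-like nuclei, were not detectable as changed or unchanged at this depth.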
